A study of Mus musculus with 2 samples.

Results

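Classical monocytes in MC38 tumours were defined here as cell barcodes with at least 2 UMIs (unique molecular identifiers, counted RNA molecules) of Ly6c2, at least 2 of Plac8 and at least 1 of Chil3. They also needed at least 500 UMIs, at least 200 genes and at most 10% mitochondrial UMIs, no UMI of Cd3d, Cd3e, Cd3g or Cd79a, and under 8000 for C1qa, C1qb and C1qc together in counts per 1000000 (CPM) of the barcode. These criteria, called the gate below, selected 193 of 18812 barcodes that passed the quality limits and of 19261 deposited. UEIS KI contributed 110 of 9442 barcodes and UEIS LSL 83 of 9370. CD45+ cells had been sorted from digested subcutaneous tumours of MC38, a mouse colon adenocarcinoma line, grown in C57BL/6 mice and profiled by 10x Genomics 3' v3 sequencing. The 2 groups are named UEIS KI and UEIS LSL after the host mice. The labels expand neither name, and they state no age, tumour time, driver line or number of pooled mice. The tumours are a transplanted line in both groups, and the host's own immune cells were profiled. By its title the series asks what the micropeptide UEIS does to cytosolic DNA sensing by cGAS and STING, to interferon and to immunity against tumours. No UEIS symbol was found in the matrices, so the label UEIS KI could not be checked against it here. Each group held 1 library, so there is no replicate and no test: every 95% interval covers counting error only, and a difference between libraries cannot be told apart from one between mice, tumours or runs.

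Classical monocytes are made in the bone marrow, leave it through the chemokine receptor Ccr2 and enter inflamed tissue and tumours, where they mature into macrophages or dendritic-like cells. Freshly arrived cells carry Ly6C on the surface, which Ly6c2 encodes, and express Chil3, a chitinase-like secreted protein. As they mature they lose Ly6C and gain complement C1q, apolipoprotein E and, in part, MHC class II. Interferons induce a broad set of antiviral genes in them, and interferon gamma also induces class II genes and the chemokine Cxcl9.

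The gated barcodes matched the label by its defining markers. Vcan, which encodes the matrix proteoglycan versican and took no part in the gate, was found in 81 of 110 barcodes in UEIS KI and 50 of 83 in UEIS LSL. Ccr2 was found in 104 of 110 and 77 of 83 barcodes, and F13a1, coagulation factor XIII subunit A, in 90 of 110 and 71 of 83. Apart from those of the gate itself, genes with a high level in the gate over all other kept barcodes included Hp, the haemoglobin-binding haptoglobin (14.9-fold in UEIS KI and 8.08-fold in UEIS LSL), Ifitm6 (13.3-fold and 6.75-fold), the protease inhibitor Slpi (6.27-fold and 5.23-fold), and C3 (10.4-fold and 5.18-fold), although 52.9% of the C3 UMIs of UEIS LSL lay in 1 barcode. Ms4a4c, Gsr, Mgst1, Itgal, Vcan, Mmp8 and Slfn1 followed. These levels describe cells chosen by such genes and were not tested. Part of the 3' end of Ly6c2 is shared with its copy Ly6c1: 88 of 351 windows of 50 bases in the last 400 bases (25.1%) also lay in a Ly6c1 transcript. Ly6c1 had 5 UMIs in 3 barcodes of UEIS KI and 73 UMIs in 2 barcodes of UEIS LSL. Chil3 shared none of its 351 windows with Chil4, which had no UMI in either library.

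Markers of lymphocytes and non-immune cells were mostly absent, while macrophage and, in UEIS KI, neutrophil markers were not. T cell markers summed to 0 UMIs in UEIS KI and 2 in UEIS LSL, NK cell markers to 2 and 6, mast cell or basophil markers to 2 and 1, tumour epithelial markers to 0 and 5, endothelial markers to 5 and 5, erythroid markers to 4 and 0, and B cell markers to 15 and 23. Of the T cell markers, all 6 were at 0 in UEIS KI and 4 in UEIS LSL, 3 of which the gate itself required. Dendritic cell markers were low, with cDC2 markers at 76.4 and 128 CPM of the gate's summed UMIs, cDC1 markers at 157 and 186 CPM, and plasmacytoid markers at 133 and 109 CPM. Xcr1, Clec9a and Spib were at 0 in both libraries. Macrophage markers were found in all 110 and all 83 barcodes. They reached 5381 CPM in UEIS KI and 5282 CPM in UEIS LSL, beside 5551 and 3684 CPM for the 7 classical monocyte markers, 3 of which the gate used, and against 22705 and 21860 CPM in barcodes above the C1q limit (C1q-high barcodes, 4013 and 3590). Neutrophil markers reached 3024 CPM in 86 of 110 barcodes in UEIS KI and 130 CPM in 42 of 83 in UEIS LSL. Fibroblast markers reached 148 and 2019 CPM, and 1 barcode held 129 of their 143 UMIs in UEIS KI and 1 barcode held 1582 of 1706 in UEIS LSL. The part of these other cell types in the results was not tested, and values without barcodes that held 10 or more UMIs of S100a9 or of the fibroblast markers, or any of Retnlg or Cxcr2, stand beside the results that moved most.

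The libraries held 99404988 UMIs in UEIS KI and 92764697 in UEIS LSL, and 34 barcode sequences occurred in both libraries, none of them in the gate. Gated barcodes had a median of 5468.5 UMIs and 2078 genes in UEIS KI and 4712 UMIs and 1876 genes in UEIS LSL. A few deep barcodes carried much of the summed RNA. In UEIS KI 6 barcodes with at least 20000 UMIs held 17.5% of the gate's UMIs, and in UEIS LSL 13 such barcodes held 50.6%, the deepest 10.1% alone. Scrublet, a doublet score, marked 8 gated barcodes in UEIS KI, 2 of them deep, and 9 in UEIS LSL, 6 of them deep. Xist, the RNA that coats an inactive X chromosome, had 532 and 531 UMIs, and Ddx3y, Uty, Eif2s3y and Kdm5d of the Y chromosome had none in either library.

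The share of gated barcodes depended on which side of the Chil3 criterion a barcode lay. The gate held 1.17% (95% exact Clopper-Pearson interval 0.958 to 1.40) of kept barcodes in UEIS KI and 0.886% (0.706 to 1.10) in UEIS LSL. The log2 ratio of UEIS KI over UEIS LSL was 0.40 with an interval of -0.03 to 0.82, which includes 0. A further 22 barcodes of UEIS KI and 78 of UEIS LSL met all criteria except that they had no Chil3 UMI. With them the counts were 132 and 161, the shares 1.40% and 1.72%, and the log2 ratio -0.30 (-0.64 to 0.04). The barcodes without Chil3 also carried Ccr2 (18 of 22 in UEIS KI and 59 of 78 in UEIS LSL) and F13a1 (14 of 22 and 49 of 78). Their MHC class II list stood at 5407 CPM in UEIS KI and 20757 CPM in UEIS LSL, and their plasmacytoid markers at 419 and 580 CPM, above the 133 and 109 CPM of the gate. Chil3 itself, which the gate required, was at 2164 CPM in UEIS KI and 933 CPM in UEIS LSL within the gate. Its median there was 16 and 6 UMIs per barcode. In all other kept barcodes Chil3 was also higher in UEIS KI, at 160 against 58.5 CPM. The list counts below were therefore also computed without the Chil3 criterion, an alternative added after seeing the data. Ly6c2 stood at its minimum of 2 UMIs in 30 and 17 gated barcodes, and 52 and 57 barcodes with 1 UMI fell just outside. Plac8 stood at its minimum of 2 in 12 and 6 gated barcodes, and 13 and 5 had 1 UMI. Chil3 stood at 1 UMI in 8 and 8. The highest C1q level inside the gate was 7761 CPM in UEIS KI and 7447 in UEIS LSL, and the lowest level removed was 8055 and 8047. The C1q limit removed 10 and 22 barcodes that met the gene criteria, and the T and B cell genes removed 4 and 10.

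To compare the libraries, UMIs of the gate were summed, giving 969028 in UEIS KI and 844911 in UEIS LSL. A gene was measured with at least 50 UMIs over both, and called with a ratio of at least 1.5-fold and its counting interval on that side of 1. Of 4638 measured genes 241 were higher in UEIS KI (5.2%) and 334 were lower (7.2%), with a median log2 ratio of 0.01. Without the barcodes of 20000 UMIs or more, 158 of 3399 genes were higher (4.65%) and 122 were lower (3.59%). With each gene's highest barcode removed in both libraries, 274 of 4185 were higher (6.55%) and 138 lower (3.3%). Averaging barcodes with equal weight gave 165 higher (3.56%) and 216 lower (4.66%) of 4638. Of the 241 higher genes 60 were called in all 3 of these variants, and of the 334 lower genes 46. For 7 of the higher and 51 of the lower genes, 1 barcode held most of the UMIs of the library in which the gene stood higher.

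Most MHC class II genes were lower in UEIS KI than in UEIS LSL. They encode the chains that present peptides to CD4 T cells (H2-Aa, H2-Ab1, H2-Eb1), the invariant chain (Cd74) that escorts them, and the H2-DM chaperone that loads the peptide. Of 13 list members 7 were measured, and 6 of these were lower and none higher, beside 7.2% of all measured genes lower. Cd74 stood at 2544 CPM in UEIS KI and 7518 CPM in UEIS LSL, a log2 ratio of -1.56 (-1.63 to -1.50). It was found in 85 of 110 and 75 of 83 barcodes. H2-Aa stood at 578 CPM in 34 of 110 barcodes of UEIS KI and at 1890 CPM in 46 of 83 barcodes of UEIS LSL, a log2 ratio of -1.71 (-1.85 to -1.57). H2-Eb1 stood at 344 CPM in 25 barcodes and 1413 CPM in 39, a log2 ratio of -2.04 (-2.22 to -1.86). The other 3 called members were named after their values were seen. H2-Ab1 was at 353 and 1217 CPM (-1.79), H2-DMa at 162 and 353 CPM (-1.12), and H2-DMb1 at 119 and 295 CPM (-1.31). Ctss, the cathepsin that trims the invariant chain, was at 1639 CPM in UEIS KI and 1575 CPM in UEIS LSL, a log2 ratio of 0.06 (-0.05 to 0.16). The transactivator Ciita (10 and 20 UMIs) and Rfx5 (2 and 3 UMIs) were below the UMI minimum. In mm10 the H2 genes lie together on chromosome 17: H2-DMa at 34119541 to 34139101, H2-DMb1 at 34153072 to 34160230, H2-Ab1 at 34257689 to 34269419, H2-Aa at 34282744 to 34287823 on the minus strand, and H2-Eb1 at 34305867 to 34316674.

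Class II RNA was spread unevenly over barcodes, and the 10 highest held 58.2% of the list's UMIs in UEIS KI and 65.9% in UEIS LSL. The list's median per barcode was 2132 CPM in UEIS KI (lowest 77.6, highest 38384) and 3796 CPM in UEIS LSL (lowest 643, highest 78321). After thinning every barcode to 1000 UMIs, H2-Aa was seen in 13.6% of barcodes (7.84 to 21.5) in UEIS KI and 32.5% (22.6 to 43.7) in UEIS LSL, and Cd74 in 38.2% (29.1 to 47.9) and 57.8% (46.5 to 68.6). The unthinned shares of H2-Aa were 30.9% and 55.4%. Among Cd3e barcodes, taken as a cell type that should lack class II, the thinned shares of H2-Aa were 20.2% (15.1 to 26.1) in UEIS KI and 42.9% (37.8 to 48.1) in UEIS LSL, and median depths were 5753 and 10922.5 UMIs. The Cd74 shares there were 38.5% (32 to 45.3) and 68.9% (63.9 to 73.6). The gate's shares of both genes were at or below those of Cd3e barcodes of the same library, so the shares alone do not show expression above free RNA. The summed level of the 6 called genes also lay below that of Cd3e barcodes, at 4099 CPM in the gate of UEIS KI and 12685 CPM in that of UEIS LSL, against 5024 and 14045 CPM. The Cd3e barcodes also carried C1q, at 6599 and 7057 CPM, against 2286 CPM in the gate of UEIS KI and 2303 CPM in that of UEIS LSL. For each C1q UMI, the 6 called class II genes had 1.79 UMIs in the gate of UEIS KI and 5.51 in that of UEIS LSL, against 0.297 and 1.38 in C1q-high barcodes and 0.761 and 1.99 in Cd3e barcodes. Gated barcodes with no C1q UMI, 9 in UEIS KI and 17 in UEIS LSL, still held class II RNA at 1600 and 3823 CPM, while the 20 and 34 Cd3e barcodes without C1q UMIs, with median depths of 1716 and 1762 UMIs, held 4693 and 4356 CPM.

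Single gated barcodes stood far above these levels at low C1q. A barcode of UEIS KI reached 37995 CPM of the class II list at a C1q level of 249.97 CPM, and a barcode of UEIS LSL 78321 CPM at 529 CPM. The barcode of UEIS KI had 2 UMIs of Ly6c2, 3 of Plac8 and 4 of Chil3. It also held 15 of the 74 cDC2 marker UMIs of that gate, the most of any barcode, so it may be a dendritic or mixed barcode. The part of free RNA in the class II level was not tested.

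**Figure D1:**
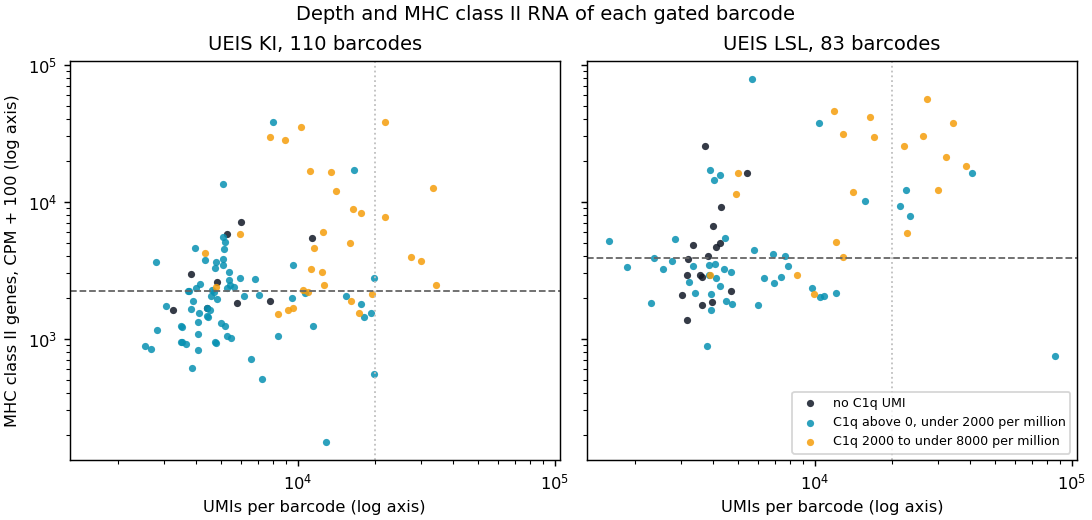
Each point is 1 gated barcode of UEIS KI (left, 110) or UEIS LSL (right, 83), with its UMIs on the x axis and the CPM of the MHC class II list plus 100 on the y axis, both log. Dashed lines mark the median of each library (2132 and 3796 CPM before adding 100), the dotted line marks 20000 UMIs, with 6 and 13 barcodes at or above it, and colours give the C1q level.

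The same genes were compared in 2 other populations of the same libraries. The 7 measured members had a median log2 ratio of -1.56 in the gate and -2.14 in C1q-high barcodes, where 6 of 7 were also lower beside 4.12% of 12649 genes. In barcodes with at least 2 UMIs of Cd209a, a dendritic cell lectin, no Ly6c2 and C1q below the limit (104 in UEIS KI and 249 in UEIS LSL), the median was 0.01 and none of 7 was called, beside 3.64% higher and 3.16% lower of 6778 genes. H2-Aa stood there at 9927 CPM in UEIS KI and 9738 CPM in UEIS LSL. Without the Chil3 criterion the gate's median was -1.65, with 7 of 8 measured members lower beside 5.16% of 5559 genes. Without the deep barcodes the median was -1.44 and 6 members were lower, beside 3.59%. The difference between these populations was not tested.

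Class II promoters share a pair of motifs, the X box bound by the RFX complex and the Y box bound by NF-Y, on which CIITA is assembled. The 300 bases around the start of the 3 called genes whose promoter sequence held both motifs are shown, from RefSeq (GRCm38.p6), in 5' to 3' order of the gene. Capitals mark the letters CTNGNAACT, used for the X box, and TGATTGG, used for the Y box, each searched on both strands.
H2-Aa, chr17:34287774-34288073, minus strand: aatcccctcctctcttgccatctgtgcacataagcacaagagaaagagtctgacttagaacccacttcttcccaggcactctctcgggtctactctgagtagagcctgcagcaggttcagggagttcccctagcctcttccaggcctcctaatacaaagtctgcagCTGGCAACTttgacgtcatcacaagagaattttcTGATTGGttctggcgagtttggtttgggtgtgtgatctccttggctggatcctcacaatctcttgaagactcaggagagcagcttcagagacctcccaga
H2-Eb1, chr17:34305617-34305916, plus strand: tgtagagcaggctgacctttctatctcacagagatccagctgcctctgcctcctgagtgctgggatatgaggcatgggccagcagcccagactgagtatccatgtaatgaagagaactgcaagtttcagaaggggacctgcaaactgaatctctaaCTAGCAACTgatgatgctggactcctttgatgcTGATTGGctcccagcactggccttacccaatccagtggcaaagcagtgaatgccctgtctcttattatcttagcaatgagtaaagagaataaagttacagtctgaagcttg
H2-DMb1, chr17:34152941-34153240, plus strand: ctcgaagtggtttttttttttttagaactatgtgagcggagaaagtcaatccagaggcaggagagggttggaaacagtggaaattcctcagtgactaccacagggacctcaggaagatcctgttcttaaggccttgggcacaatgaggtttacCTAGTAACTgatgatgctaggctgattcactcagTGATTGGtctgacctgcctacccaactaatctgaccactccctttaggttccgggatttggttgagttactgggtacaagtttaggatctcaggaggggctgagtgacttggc

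In all 3 the X box letters lie upstream of the Y box letters on the gene's own strand, starting at bases 167 and 201 in H2-Aa, 157 and 190 in H2-Eb1, and 154 and 188 in H2-DMb1. The X box letters were found in 4.10% of 32851 promoters of this length, the Y box letters in 7.82% and both in 0.350%. Promoters were given for 10 of the 13 list members, and 3 held the X box letters, 8 the Y box letters and 3 both. The cathepsin Ctss, which did not differ beyond its counting interval, held neither, and H2-DMa, which was lower, held neither in either of its entries. A match describes letters and is not evidence of binding.

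**Figure D2:**
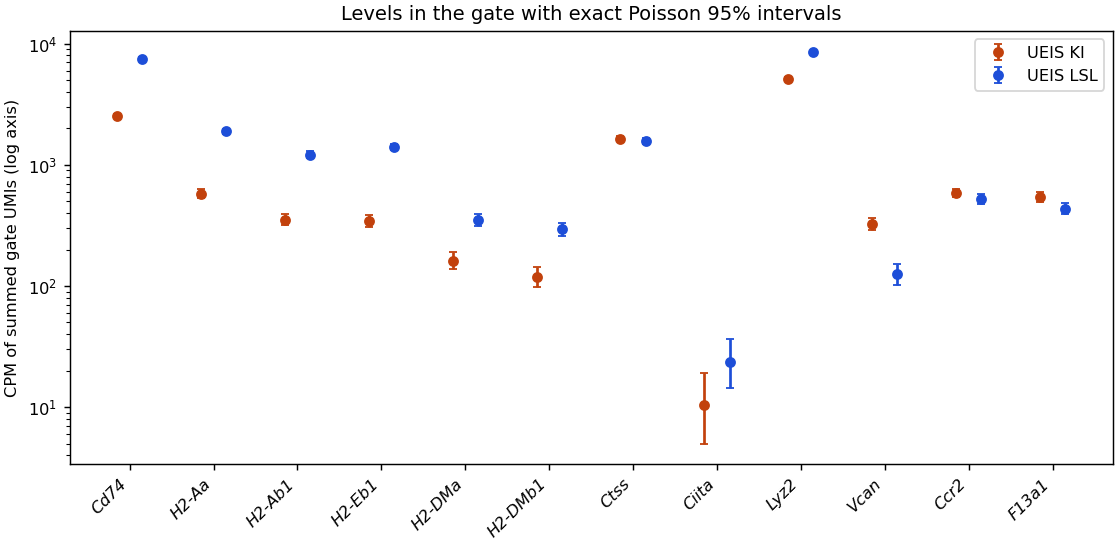
Levels of class II genes and of monocyte genes in CPM of the summed gate UMIs on a log y axis, with UEIS KI left of UEIS LSL for each gene and exact Poisson 95% intervals as bars. Cd74 (2544 against 7518 CPM) and the H2 genes are lower in UEIS KI, the Ctss intervals overlap, and Vcan (326 against 125 CPM) is higher.

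Genes of neutrophil granules and of granule-bearing monocytes were higher in UEIS KI, and they came from different numbers of barcodes. S100a8, an alarmin subunit and one of the 8 neutrophil markers, had 1468 UMIs in 60 of 110 barcodes of UEIS KI and 17 UMIs in 10 of 83 barcodes of UEIS LSL. Of the UEIS KI UMIs 51.7% lay in 1 barcode. Its log2 ratio was 6.23 (5.55 to 7.02), 5.69 without the deep barcodes, 5.69 with its highest barcode removed and 4.42 without barcodes holding a UMI of Retnlg or Cxcr2. S100a9, its partner, was seen in 11 barcodes of UEIS KI with 1041 UMIs and in 1 barcode of UEIS LSL with 1 UMI, a log2 ratio of 9.83 (7.34 to 15.13), and 58.2% of the UEIS KI UMIs lay in 1 barcode. Both genes were also higher in UEIS KI outside the gate. S100a8 stood at 99.9 against 12.8 CPM in C1q-high, 82.6 against 5.03 in Cd209a and 165 against 25.9 in all other kept barcodes. S100a9 stood at 91.3 against 10.1, 118 against 0 and 160 against 20.4 CPM. Retnlg, a marker of neutrophils, had 127 UMIs in 4 barcodes of UEIS KI and none in UEIS LSL, and was at least 36.9-fold higher against a floor of 3 counts in UEIS LSL. In UEIS KI 20 barcodes carried at least 10 UMIs of the 8 neutrophil markers, and 1 of them had 1510 of the 2930 summed UMIs at a depth of 4796 UMIs. In UEIS LSL 1 barcode carried 10 or more. G0s2 had 93 and 8 UMIs, and its log2 ratio of 3.34 became -0.12 without barcodes holding a UMI of Retnlg or Cxcr2. It had under 50 UMIs there and was not measured.

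The granule list holds granule proteins of monocytes that descend from granulocyte-monocyte progenitors, and of neutrophils. Of its 12 members 5 were measured and all 5 were higher in UEIS KI, beside 5.2% of all measured genes, with a median log2 ratio of 4.22 (3.11 without barcodes that held 10 or more UMIs of S100a9 or of the fibroblast markers). The median member, Ngp, a protein of neutrophil granules, had 64 UMIs in 1 barcode of UEIS KI and none in UEIS LSL, and its ratio is a bound at the floor of 3 counts. Lcn2, the iron-siderophore binder lipocalin 2, had 193 UMIs in 48 barcodes of UEIS KI and 25 UMIs in 11 barcodes of UEIS LSL, a log2 ratio of 2.75 (2.15 to 3.41). Wfdc21 had 118 UMIs in 30 barcodes of UEIS KI and none in UEIS LSL, and was at least 34.3-fold higher against the floor of 3 counts. Prtn3, proteinase 3, had 78 UMIs in 45 barcodes and 20 UMIs in 14 barcodes, a log2 ratio of 1.77 (1.04 to 2.55). At 1000 UMIs per barcode Lcn2 was seen in 15.5% of barcodes (9.27 to 23.6) in UEIS KI and 3.61% (0.752 to 10.2) in UEIS LSL, against 0.917% and 0.268% in Cd3e barcodes. Prtn3 was seen in 8.18% (3.81 to 15) of barcodes in UEIS KI and 8.43% (3.46 to 16.6) in UEIS LSL after thinning to 1000 UMIs. Its log2 ratio was 1.44 with every barcode given equal weight. S100a8 was seen in 20% (13 to 28.7) of gated barcodes in UEIS KI and 6.02% (1.98 to 13.5) in UEIS LSL, against 1.83% and 0.804% in Cd3e barcodes. Lyz1, a lysozyme copy, had 182 UMIs in 25 barcodes and 2 UMIs in 1 barcode, a log2 ratio of 6.31 (4.44 to 9.37). Its thinned share of 7.27% in the gate of UEIS KI lay below the 13.8% of Cd3e barcodes. That share alone does not show expression above free RNA, and the part of free RNA in the Lyz1 level was not tested. Lyz1 also shared 67 of 351 windows (19.1%) of its 3' end with Lyz2. In C1q-high barcodes 4 of the same 5 genes were higher too, beside 6.02% of genes there, with a median log2 ratio of 3.19.

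**Figure D3:**
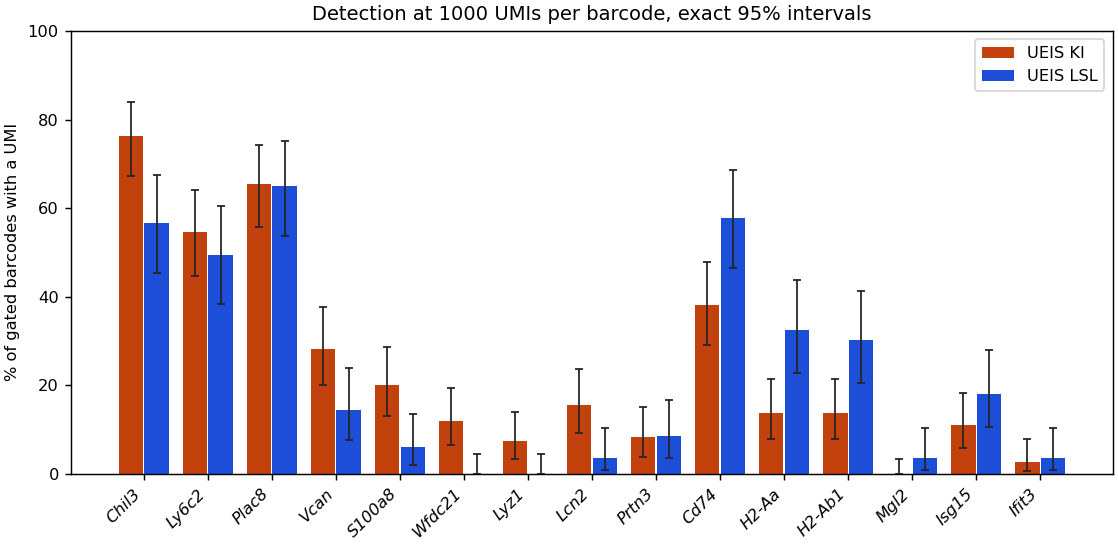
Share of gated barcodes with at least 1 UMI of each gene after every barcode was thinned to 1000 UMIs, for UEIS KI (left bars, 110 barcodes) and UEIS LSL (right bars, 83), with exact 95% intervals. Wfdc21 (11.8% against 0%) and Lcn2 (15.5% against 3.61%) were seen more often in UEIS KI, H2-Aa (13.6% against 32.5%) less often, and Prtn3 stood at 8.18% against 8.43%. Chil3, Ly6c2 and Plac8 were required by the gate.

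In the gate most genes of classical monocyte identity passed no limit, and those that did were higher in UEIS KI apart from 1 lysozyme gene. Of 21 measured members that the gate did not use, 6 were higher, 1 was lower and 14 were neither, beside 5.2% higher and 7.2% lower of all genes, with a median log2 ratio of 0.49. Without the deep barcodes 3 were higher and 1 lower, beside 4.65% and 3.59%, with a median of -0.01. A stricter gate asked for at least 4 UMIs of Ly6c2, 4 of Plac8 and 2 of Chil3. There 12 of 21 were higher and none lower (median 0.77), while 2149 of 2638 genes were neither. Vcan stood at 326 CPM in UEIS KI and 125 CPM in UEIS LSL, a log2 ratio of 1.38 (1.06 to 1.71) and 0.87 without the deep barcodes. Thinned, Vcan was in 28.2% of barcodes (20 to 37.6) in UEIS KI and 14.5% (7.70 to 23.9) in UEIS LSL, against 2.29% and 3.49% in Cd3e barcodes. Fn1, the matrix protein fibronectin, stood at 2738 and 1812 CPM (0.60, 0.50 to 0.69), Gsr, glutathione reductase, at 563 and 342 CPM, and Ifitm6 at 255 and 147 CPM. Lyz2, the main lysozyme gene of mouse myeloid cells, was the lower member, at 5126 CPM in UEIS KI and 8522 CPM in UEIS LSL, a log2 ratio of -0.73 (-0.79 to -0.68) and -1.08 without the deep barcodes. With the stricter gate its log2 ratio was -0.57 and passed no limit. Outside the gate Lyz2 was lower in UEIS KI too. It stood at 6745 against 9891 CPM in C1q-high, 1915 against 3060 in Cd209a and 5447 against 7607 in all other kept barcodes. Ccr2 stood at 586 and 524 CPM (0.16, -0.02 to 0.34) and did not differ beyond counting error.

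The type I interferon-induced list, which the series title bears on, depended on which barcodes were counted. Of 36 measured members of 64 none was higher and 4 were lower in UEIS KI, beside 5.2% and 7.2% of all genes, with a median log2 ratio of -0.07. The 3 members with most UMIs lay near 0: Ifitm3 at 2369 and 2409 CPM (-0.02, -0.11 to 0.06), Ly6e at 899 and 1029 CPM (-0.19), and Ifi27l2a at 900 and 1008 CPM (-0.16). Ifi205, a DNA-sensor family gene, had the lowest ratio, with 12 UMIs in 5 barcodes and 41 UMIs in 10 barcodes (-1.97, -3.03 to -1.01). Isg20 had the highest, with 41 and 23 UMIs (0.64, -0.13 to 1.44). Without the deep barcodes the median was -0.50 and 10 members were lower, beside 3.59% of genes, and without the Chil3 criterion it was -0.56 and 19 of 52 were lower and none higher, beside 5.16%. The same genes had a median of -0.61 in C1q-high barcodes, with 19 of 36 lower, beside 4.12%. Per barcode the list's median was 6182 CPM in UEIS KI (lowest 1460, highest 63830) and 8854 CPM in UEIS LSL (lowest 2241, highest 62500), and the spreads overlap over most of their range. Thinned, Isg15, a ubiquitin-like protein, was in 10.9% of barcodes (5.77 to 18.3) in UEIS KI and 18.1% (10.5 to 28.0) in UEIS LSL, against 13.3% and 17.2% in Cd3e barcodes. The whole list stood at 7804 and 8286 CPM in the gate, against 3941 CPM in Cd3e barcodes of UEIS KI and 6066 CPM in those of UEIS LSL. The 20 and 34 Cd3e barcodes without C1q UMIs, with median depths of 1716 and 1762 UMIs, held it at 7170 and 7640 CPM. The part of free RNA in the list's level was not tested. The 4 lower members were Ifi203, Ifi205, Gbp7 and Ly6a, of which Ifi203, Gbp7 and Ly6a were named after their values were seen.

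The list's ratio differed between C1q ranges, which hold few barcodes. With no C1q UMI it stood at 8783 CPM in UEIS KI (9 barcodes) and 22751 CPM in UEIS LSL (17 barcodes), with a median log2 ratio of -1.64 over 19 genes with at least 20 UMIs, none higher and 15 lower, beside 6.59% and 7.29% of 987 genes. Between 0 and 2000 C1q CPM (70 and 46 barcodes) the median was 0.22 with 10 higher and 2 lower of 40, beside 6.44% and 9.26%. From 2000 to the limit (31 and 20 barcodes) it was -0.06 with 2 higher and 1 lower of 34, beside 4.81% and 4.65%. The 4 highest barcodes of UEIS KI below 2000 C1q CPM, at 32632 to 63830 CPM of the list, had C1q levels of 209 to 1154 CPM and so lay in the second range. With no C1q UMI 1 of 9 barcodes in UEIS KI stood at 29546 CPM, and 5 of 17 in UEIS LSL between 26214 and 62500 CPM. With both ranges below 2000 CPM pooled the median was -0.15, with 1 higher and 3 lower of 27. This pooled count used the minimum of 50 UMIs, so it is not directly comparable with the counts of the ranges. Of all 2924 genes measured there 2494 were neither higher nor lower. The barcodes outside the gate by Chil3 alone held the list at 8188 CPM in UEIS KI and 16547 CPM in UEIS LSL. The rank correlation of the list with C1q over barcodes was -0.17 in UEIS KI and -0.47 in UEIS LSL (Spearman rho, 110 and 83 barcodes of 1 library each, given as a description), and that with UMIs per barcode was -0.16 and -0.46. No UMI of any of the 11 interferon genes, from Ifnb1 to Ifng and Ifnl3, was found in the gate of either library, which, at 3 counts of the total, allows a share of up to 2.73% of barcodes with a UMI in UEIS KI and 3.61% in UEIS LSL.

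Genes induced by interferon gamma included few called members, and these were lower. Of 15 measured of 33, none was higher and 4 were lower, beside 7.2%, with a median log2 ratio of -0.27. Cxcl9, a chemokine that draws T cells, had 12 UMIs in 1 barcode of UEIS KI and 208 UMIs in 9 barcodes of UEIS LSL, a log2 ratio of -4.31 (-5.29 to -3.48). Socs1, a feedback inhibitor of the receptors, had 9 UMIs in 9 barcodes and 46 UMIs in 19 barcodes (-2.55, -3.77 to -1.50), and Irf1, a transcription factor, had 42 UMIs in 29 and 67 UMIs in 31 barcodes (-0.87, -1.46 to -0.29). Cxcl10, which both interferon types induce, had 192 UMIs in 18 barcodes and 121 UMIs in 15, a log2 ratio of 0.47 (0.13 to 0.81) that passed no 1.5-fold limit, and 38% and 44.6% of them lay in 1 barcode. Without the Chil3 criterion 11 of 20 members were lower, with a median of -0.82, beside 5.16%. At a C1q limit of 2000 CPM 2 of 11 were higher and none lower (median 0.07), while 2494 of 2924 genes were neither. By C1q range, with at least 20 UMIs, 9 of 17 were lower from 2000 CPM up (-0.62), beside 4.65%. Between 0 and 2000 CPM 2 of 16 were higher and 1 lower (-0.01), beside 6.44% and 9.26%. With no C1q UMI 2 of 4 were lower (-0.70), beside 7.29%. MHC class I genes, such as B2m (1226 and 1492 CPM, -0.28) and H2-K1 (736 and 1085 CPM, -0.56), passed no limit in any of 15 measured members, with a median of -0.18. Of the cGAS-STING list 9 of 24 members were measured, and none was higher and 2 were lower, beside 5.2% and 7.2% of all genes. None of the 9 was called with each gene's highest barcode removed. The same held without barcodes of 10 or more UMIs of S100a9 or of the fibroblast markers. With every barcode given equal weight 1 was lower, beside 4.66%, and without the deep barcodes 2 of 6, beside 3.59%. The 2 lower members of the main comparison were Hmgb1 (168 and 283 CPM) and G3bp1 (88.7 and 154 CPM). Samhd1 stood at 346 and 283 CPM (0.29) and Ifi204 at 136 and 162 CPM (-0.25). Of 12 measured interferon receptors and transducers 1, Socs1, was lower, while Ifngr1, the ligand-binding chain of the interferon gamma receptor, stood at 330 and 271 CPM (0.28, 0.04 to 0.54).

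**Figure D4:**
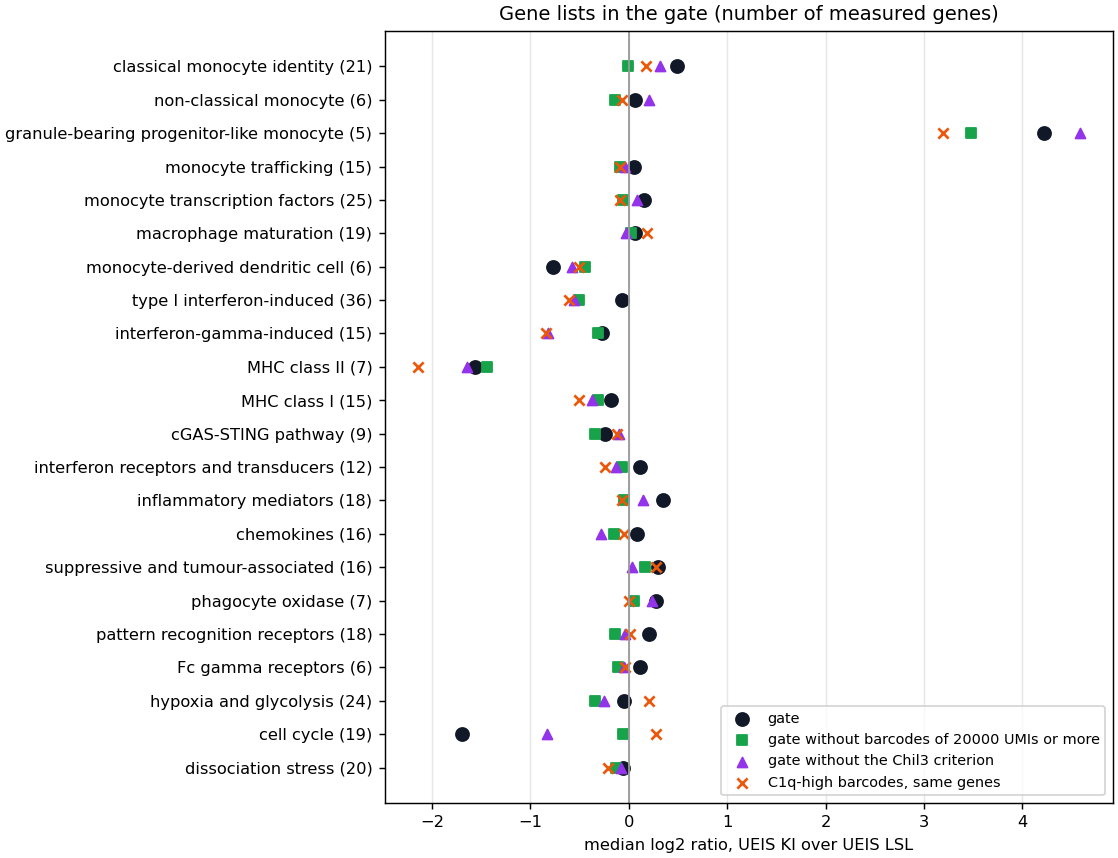
Median log2 ratio of UEIS KI over UEIS LSL for each gene list with at least 5 measured genes (their number in parentheses), in the gate, without barcodes of 20000 UMIs or more, without the Chil3 criterion, and for the same genes in C1q-high barcodes. MHC class II is below 0 in all 4 (-1.56, -1.44, -1.65 and -2.14) and the granule list above 0, while type I interferon-induced genes lie at -0.07, -0.50, -0.56 and -0.61.

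In the gate most inflammatory and suppressive genes passed no limit, unlike in the stricter gate. Of 18 measured inflammatory mediators 4 were higher and 1 was lower, beside 5.2% and 7.2% of all genes, with a median log2 ratio of 0.35. Without the deep barcodes 1 of 16 was higher, beside 4.65%, with a median of -0.05. With the stricter gate 8 of 14 were higher and none lower (median 0.64), while 2149 of 2638 genes were neither. Il1b, which encodes interleukin 1 beta, stood at 2598 CPM in UEIS KI and 1990 CPM in UEIS LSL (0.39, 0.30 to 0.48), under the 1.5-fold limit. Thbs1, thrombospondin 1, stood at 1842 and 1180 CPM (0.64, and 0.04 without the deep barcodes), and Trem1, a receptor that amplifies inflammatory signalling, at 151 and 72.2 CPM (1.06, and 0.58 without them). Tnfsf9 was lower, at 29.9 and 49.7 CPM (-0.73). Of 16 measured suppressive and tumour-associated genes 5 were higher and none lower, beside 5.2% and 7.2%, with a median of 0.30. Without barcodes that held 10 or more UMIs of S100a9 or of the fibroblast markers 3 of 15 were higher, with a median of 0.06. With the stricter gate 9 of 13 were higher and none lower (median 1.01). The 5 higher genes of the main comparison were S100a8, S100a9, Fn1, Retnla and Mmp12. Retnla rests on 1 barcode with 98% of its UMIs in UEIS KI. Spp1, osteopontin, stood at 3151 and 2106 CPM (0.58, 0.50 to 0.67), just under the limit. Cd274, which encodes PD-L1, had 27 and 31 UMIs (-0.40, -1.20 to 0.39), not distinguishable at this depth. Among 16 measured chemokines Cxcl14 was higher and Cxcl9 and Cxcl3 lower, beside 5.2% and 7.2%, and the 3 with most UMIs, Cxcl2 (2315 and 2457 CPM), Ccl6 (1638 and 1353 CPM) and Ccl2 (1215 and 1008 CPM), passed no limit. With the stricter gate 7 of 13 chemokines were higher and 1 lower (median 0.59). What sets the stricter gate apart was not tested.

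Adhesion molecules, transcription factors and receptors mostly passed no limit. The counts in these lists stand beside 5.2% of all genes higher and 7.2% lower, or 4.65% and 3.59% without the deep barcodes. Of 15 trafficking genes 2 were higher, Cd44 (900 and 536 CPM, 0.75) and the integrin Itgal (124 and 75.7 CPM, 0.71), and 1 lower, the integrin Itgax (17.5 and 45 CPM, -1.36), and without the deep barcodes none of 14 was called. Of 25 transcription factors 4 were higher and Irf1 was lower, and without the deep barcodes 1 was higher and 1 lower. Nr4a1, which is required for non-classical monocytes in mice, stood at 795 CPM in UEIS KI and 483 CPM in UEIS LSL (0.72, 0.54 to 0.90, and 0.26 without the deep barcodes). Cebpb (3793 and 2560 CPM, 0.57) and Klf2 (1840 and 1653 CPM) were under the limit. Of 6 measured non-classical monocyte genes Nr4a1 and Itgal were higher, with none of 5 called without the deep barcodes, and Cx3cr1, the fractalkine receptor, stood at 149 and 181 CPM (-0.29, -0.62 to 0.05). Among phagocyte oxidase subunits Ncf1 was higher (185 and 110 CPM, 0.75), as was Tlr2, a lipoprotein sensor, among 18 measured pattern recognition receptors (264 and 154 CPM, 0.78, and 0.59 without the deep barcodes). None of 6 Fc gamma receptor genes passed the limit. Of 24 measured hypoxia and glycolysis genes Ankrd37 and Ddit4 were higher and Ero1a lower, with a median of -0.05. Of 20 dissociation-stress genes Ier3 was higher and Hsp90aa1 and Hspe1 lower, with Fos at 6088 and 6224 CPM and Dusp1 at 3345 and 3460 CPM.

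Most genes of macrophage maturation passed no limit, and some dendritic-type genes were lower in small numbers of barcodes. None of 19 measured macrophage maturation genes that the gate did not use was higher, beside 5.2% of all genes. Only Axl, a receptor for dying cells, was lower (52.6 and 110 CPM, -1.06), beside 7.2%, and the list's median was 0.06. With the stricter gate 6 of 18 were higher and 1 lower (median 0.44), while 2149 of 2638 genes were neither. Apoe stood at 1984 and 1956 CPM in 100 of 110 and 67 of 83 barcodes. Of 6 measured monocyte-derived dendritic cell genes 3 were lower, beside 7.2% of all genes, with a median of -0.77. Without the deep barcodes 1 of 4 was lower, beside 3.59% of genes. At a C1q limit of 2000 CPM none of 3 was called, while 2494 of 2924 genes were neither. Mgl2, a galactose lectin of dendritic cells and macrophages, had 17 UMIs in 8 barcodes and 134 UMIs in 20 barcodes (-3.18, -4.00 to -2.44), and Cd209a had 19 UMIs in 2 barcodes and 37 in 6. The Cd209a ratio of -1.16 became 1.72 without the deep barcodes. Cd86 stood at 101 CPM in both libraries.

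Several of the lowest ratios came from single barcodes of UEIS LSL. All 167 UMIs of Gzmc, a granzyme, lay in 1 barcode of UEIS LSL and UEIS KI had none, so that it was at least 63.8-fold lower against the floor of 3 counts. A single barcode of UEIS LSL held 87.8% of the 650 Col3a1 UMIs there, and for Col1a1 the highest barcode held 92.8%, for Col1a2 97.4% and for Dcn 100%. In UEIS LSL 1 barcode also held 65.5% of the Sparc UMIs, 55% for Plac9a, 66.7% for Tm4sf1 and 51.8% for Serpinh1. Of the 115 Col3a1 UMIs of UEIS KI 93% lay in 1 barcode, and without the deep barcodes the log2 ratio was 2.89 for Col3a1 and 2.12 for Sparc, against -2.70 and -4.73 with them. Sparc had under 50 UMIs without the deep barcodes and was not measured there. Genes higher in UEIS KI by the same measure were Acp5 (64.1% from 1 barcode) and Ctsk (82.2%), both of bone-resorbing cells, and F11r, a junction protein, whose 97 and 33 UMIs were spread over 50 and 20 barcodes with a log2 ratio of 1.36 (0.77 to 1.97, and 1.38 without the deep barcodes).

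Cell cycle genes were lower in UEIS KI in the summed UMIs, and a few barcodes held most of them in UEIS LSL. All 19 measured members of 30 were lower, beside 7.2% of all genes, with a median log2 ratio of -1.70. Tubb5 stood at 551 and 1033 CPM (-0.91), Hmgb2 at 290 and 621 CPM (-1.10) and Rrm2, a ribonucleotide reductase subunit, at 8.26 and 67.5 CPM (-3.03). The highest barcode held 11.3% of the list's UMIs in UEIS KI and 39.1% in UEIS LSL, and the 10 highest 50.4% and 82.8%. Without the deep barcodes 4 members remained measured, none of them called, with a median of -0.06. With every barcode given equal weight 9 of 19 were lower, beside 4.66%, with a median of -0.52. The list's per-barcode medians were 836 CPM in UEIS KI and 841 CPM in UEIS LSL.

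Gated barcodes varied in how much macrophage RNA they carried. No C1q UMI was found in 9 of 110 barcodes in UEIS KI (8.18%, 3.81 to 15) and 17 of 83 in UEIS LSL (20.5%, 12.4 to 30.8), at median depths of 5280 and 3727 UMIs. C1q levels from 2000 CPM to the limit were found in 31 (28.2%, 20 to 37.6) and 20 barcodes (24.1%, 15.4 to 34.7), at median depths of 12550 and 15207 UMIs. Over barcodes the C1q level went with the class II list (rho 0.35 in UEIS KI and 0.41 in UEIS LSL) and with depth (0.33 and 0.44), and the classical identity list ran against depth (-0.38 and -0.70). These describe barcodes of 1 library each, which share that library and its free RNA. The class II list was lower in UEIS KI in each C1q range, with a median log2 ratio of -1.28 with no C1q UMI, -1.75 below 2000 CPM and -1.67 above. In these ranges 4 of 6, 5 of 7 and 7 of 9 measured members were lower, beside 7.29%, 9.26% and 4.65% of genes.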

How the data were processed

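RNA was counted in CD45+ cells of 1 UEIS KI and 1 UEIS LSL library. The values the authors deposited are raw whole UMI counts, 1 matrix of genes by barcodes a library, from Cell Ranger. Per the submitters' processing notes the version was 2.1.1 and the build mm10, while the file headers name version 8.0.1; the annotation is not given in the sources used here. The monocyte gate and the gene lists were chosen with earlier results of these data known.

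Deposited counts were summed over the gated barcodes of a library and divided by their total to give CPM, with Poisson 95% intervals (exact). Ratios of UEIS KI to UEIS LSL have binomial intervals conditional on the summed count (exact), and 0 counts took a floor of 3 per library. Shares have exact Clopper-Pearson intervals, also after thinning each barcode to 1000 UMIs; no gated barcode was shallower, and 5 and 9 Cd3e barcodes were left out. All intervals and floors cover counting error only. Depth per library and barcode stands in the report and limits the precision of genes under 50 UMIs, which were not measured. Doublets were not removed from the gate; leaving out barcodes with the highest Scrublet scores (scanpy 1.11.5, 0.8% per 1000 barcodes) was an alternative. Genes were named by rule: 12 highest and 12 lowest by the interval bound nearest 1 (at least 100 UMIs and 50 CPM, without predicted, mitochondrial, ribosomal, haemoglobin, receptor-segment, sex-linked and gate genes), 3 members with most UMIs and both extremes of each list, 15 genes highest in the gate, the gate genes and markers. H2-Ab1, H2-DMa, H2-DMb1, Ciita, Rfx5, Mmp12, Cxcl3, Ddit4, Hspe1, Ngp, Ifi203, Gbp7, Ly6a and Isg15 were named after their values were seen. Some genes that the rule names are not reported here. The symbols H2afz, Mb21d1 and Tmem173 were missing. Analyses used Python 3.11.15, numpy 2.4.6, scipy 1.17.1 and pandas 2.3.3, and the scripts were tested on simulated data.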

Additional observations from a re-analysis of the deposited data

How the results depend on the processing

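No paired analysis was possible because each group held 1 library. The alternatives without deep barcodes, without the Chil3 criterion, without S100a9 or fibroblast barcodes and without each gene's highest barcode were chosen after seeing the data. The gate's share ratio was -0.30 without the Chil3 criterion and 0.25 to 0.59 in the others. The class II median stayed below 0 in all alternatives: -1.22 without high Scrublet scores, -1.72 at a C1q limit of 2000, -1.48 with Ccr2 and Vcan in the gate, -2.18 with a stricter gate, -1.44 without deep barcodes, -1.65 without Chil3, -1.68 without S100a9 or fibroblast barcodes, -1.43 thinned to 2000 UMIs, -1.42 with every barcode alike, -1.31 at a gene minimum of 20 UMIs and -1.65 without each gene's highest barcode. The type I median was -0.56 and the interferon gamma median -0.82 without Chil3, and the interferon gamma median was 0.15 with the stricter gate. Higher genes numbered 158 without deep barcodes, 51 thinned to 2000 UMIs and 56 at a gene minimum of 200 UMIs; lower genes 122 without deep barcodes, 183 without S100a9 or fibroblast barcodes, 49 thinned, 216 with every barcode alike, 572 and 60 at gene minima of 20 and 200, and 138 without each gene's highest barcode. Directions turned for the dendritic list (0.28, C1q limit 2000), G0s2 (-0.12 without Retnlg or Cxcr2 barcodes, -0.32 without S100a9 barcodes), and, without deep barcodes, Sparc (2.12), Tm4sf1 (1.38), Dcn (1.06), Col3a1 (2.89), Serpinh1 (3.76), Ube2c (4.62), Hmgb2 (0.12) and Cd209a (1.72). Of these, G0s2, Sparc, Tm4sf1, Dcn, Serpinh1 and Ube2c had under 50 UMIs in those alternatives and were not measured there. The same holds below for Dcn with the stricter gate and Ube2c thinned. With the stricter gate Dcn was 1.86, Col3a1 0.48, Ero1a 0.86 and C3 0.45. Thinned to 2000 UMIs, Ube2c was 0.41, Pcna 0.089, Cd209a 0.88 and Itgal -0.058. With every barcode alike Ube2c was 0.048 and Cd209a 0.061, and Cd209a 2.04 at the C1q limit of 2000. Ube2c was 0.0058 and C3 0.26 without their highest barcode, and C3 0.22 without S100a9 or fibroblast barcodes. The causes were not tested. Of the remaining values of genes and lists 1874 stayed inside the interval of the main value and 532 left it; some values not called in the main comparison also changed sign. Genes with under 6 UMIs over both libraries under an alternative, such as Retnla without its highest barcode, have no value there.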
